A study of Mus musculus with 36 samples.

Results

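The genes described here are 10 cytosolic and mitochondrial heat shock genes of the mouse, measured by RNA sequencing in hypothalamus, brainstem and cortex. They were chosen by name, with symbols matched to the Ensembl identifiers of the deposited count tables through the GENCODE M21 annotation, and all 10 had a row among 38924 genes. They are Hspa1a, Hspa1b, Hspa8, Hsph1, Dnajb1, Hsp90aa1, Hsp90ab1, Hspb1, Hspd1 and Hspe1, and all 10 passed the filter on low counts in each tissue. The series holds 36 libraries in 12 groups of 3, from C57BL/6 mice of 4 genotypes. Transgenic mice carry an ataxin-3 transgene in their hypocretin (orexin) neurons, under the hypocretin promoter, which ablates these cells, and they were set against wild types of the same line. Knockout mice lack a working Hcrt gene, and they were set against wild types of the knockout line. No treatment is named in the labels, and they do not state whether each library comes from its own animal, so the p-values cover only the spread among these libraries, which may be technical.

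Heat shock proteins are chaperones, which bind unfolded proteins and help them reach or keep their shape. Under heat, oxidation or misfolded protein the transcription factor HSF1 binds heat shock elements, arrays of the short word nGAAn in alternating direction, and raises the inducible members, of which Hspa1a and Hspa1b are the best known. Hspa8, Hsp90ab1 and the mitochondrial chaperonin pair Hspd1 and Hspe1 are used by nearly every cell without stress, and neurons carry high levels of the constitutive Hsp70 and Hsp90 proteins.

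Promoter sequences are shown because the members differ in the heat shock elements they carry and because several are arranged in pairs. RefSeq promoter entries on build GRCm38.p6, each 250 bases before to 50 bases after a start site, were found for 7 of the 10 members and not for Hspa8, Hsp90aa1 and Hsp90ab1. In the lines below, capitals mark matches to the searched words, and positions are counted from the start site.
Hspa1a: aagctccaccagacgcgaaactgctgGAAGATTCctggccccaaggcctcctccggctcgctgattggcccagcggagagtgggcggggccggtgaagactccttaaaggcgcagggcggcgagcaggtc
Hspa1b: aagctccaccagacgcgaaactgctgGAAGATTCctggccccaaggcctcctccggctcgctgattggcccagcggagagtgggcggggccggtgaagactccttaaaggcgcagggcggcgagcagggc
Hspb1: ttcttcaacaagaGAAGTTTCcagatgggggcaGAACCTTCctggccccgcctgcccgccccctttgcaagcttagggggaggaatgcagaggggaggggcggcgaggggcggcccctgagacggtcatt
Hspe1 and Hspd1: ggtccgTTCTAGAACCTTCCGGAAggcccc
The Hspa1a stretch is chr17:34972157-34972286 and the Hspa1b stretch chr17:34959239-34959368, both on the minus strand and both the 130 bases before the start site. These genes lie side by side, and the 2 stretches differ at 1 of 130 bases, while their whole promoter entries are identical at 296 of 300 bases (98.7%). Each holds the word GAANNTTC once, at -104. The Hspb1 stretch is chr5:135887789-135887918 on the plus strand and holds GAANNTTC at -117 and at -97.

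Hspd1 and Hspe1 are transcribed away from each other, and the second Hspd1 entry starts 216 bases from the Hspe1 start site, so that the 2 entries overlap by 285 bases. The 30 bases shown, chr1:55088053-55088082 on the plus strand (-95 to -66 of Hspe1), lie between the start of the second Hspd1 entry and that of Hspe1 and hold 4 alternating units in a row, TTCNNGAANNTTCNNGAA. The first Hspd1 entry, chr1:55088194-55088493 on the minus strand, starts on the far side of the Hspe1 start and held none of the searched words. The word of 4 units occurs on either strand in 5 of 32851 mouse promoter entries (0.0152%). The shorter words are more common. GAANNTTC stood in 7.86% and TTCNNGAA in 8.52% of all promoter entries, and 3 units in a row (GAANNTTCNNGAA on either strand, which as its reverse complement reads TTCNNGAANNTTC) in 0.603%. All words were searched on both strands, and the longer ones contain the shorter. Hsph1 had 3 units just after its start site, at +37 of its first entry and +16 of its second, and neither of the 2 Dnajb1 entries held any of these words. A match is a description of the letters only.

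On GRCm38, Hspa1a (ENSMUSG00000091971) is annotated at chromosome 17, 34969190 to 34972156, and Hspa1b (ENSMUSG00000090877) at 34956436 to 34959238 of the same chromosome. Hspa8 (ENSMUSG00000015656) lies at chromosome 9, 40800984 to 40810087, Hsph1 (ENSMUSG00000029657) at chromosome 5, 149614287 to 149636376, and Dnajb1 (ENSMUSG00000005483) at chromosome 8, 83608193 to 83612653. Hsp90aa1 (ENSMUSG00000021270) lies at chromosome 12, 110690605 to 110702728, Hsp90ab1 (ENSMUSG00000023944) at chromosome 17, 45567775 to 45573271, and Hspb1 (ENSMUSG00000004951) at chromosome 5, 135887919 to 135889563. Hspd1 (ENSMUSG00000025980) and Hspe1 (ENSMUSG00000073676) adjoin on chromosome 1, at 55077835 to 55088243 and 55088132 to 55091307. All 10 are protein-coding.

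Before any comparison of the members, the libraries were checked. Gene counts totalled 21915540 to 47057537 a library. In hypothalamus Hcrt stood at 2.07, 2.28 and 2.46 CPM (counts relative to library size) in transgenic libraries, against 179.9, 100.8 and 196.1 CPM in their wild types, and at 1.14, 1.03 and 0.996 CPM in knockout libraries, against 81.2, 51.4 and 56.1 CPM in theirs. Among wild-type libraries, summed markers of each region were highest in that region, at 517.1 to 795.4 CPM for hypothalamus, 456.1 to 634.5 CPM for brainstem and 1643.7 to 1815.8 CPM for cortex. In hypothalamus 5 libraries held transcripts of other tissue. Summed pituitary markers reached 26067.2 and 13895.8 CPM in replicates 1 and 3 of the transgenic line's wild type and 19090.9 CPM in replicate 3 of the knockout line's wild type, against 6.76 to 56.1 CPM in the other 9, and summed nasal epithelium markers reached 1326.3 CPM in transgenic replicate 1, against 2.54 to 28.9 CPM elsewhere. Summed cortex markers stood at 133.9 and 105.6 CPM in replicates 1 and 3 of the knockout line's wild type, against 10.5 to 21.3 CPM in the other 10 hypothalamus libraries. In brainstem, replicate 2 of the transgenic line's wild type had the lowest gene total of the series and the highest share of unassigned reads, 42%. Knockout hypothalamus replicate 1 had 20.7% of reads aligned to more than 1 place, against 16.9% to 18.5% in the others of that tissue. Its unassigned share was 27.4%, against 24.7% to 26%. In transgenic cortex replicate 1, 19.2% of reads aligned to more than 1 place, against 16% to 17.1% in the other cortex libraries.

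Levels are given as CPM scaled by TMM factors over all 36 libraries, and between genes as CPM per kilobase of exon. Hsp90ab1, the constitutive cytosolic Hsp90, was the highest member per kilobase in wild-type hypothalamus at 578.5 ± 15 CPM per kb (SD, n = 6 libraries), followed by the constitutive Hsp70 Hspa8 at 289 ± 6.5 and the inducible Hsp90 Hsp90aa1 at 198.1 ± 5.2. The inducible Hsp70 genes were the lowest, Hspa1a at 2.81 ± 0.38 and Hspa1b at 1.97 ± 0.6 CPM per kb. Between these lay Hspd1 (75.3 ± 1.3), the Hsp110 gene Hsph1 (51.8 ± 2), Hspe1 (26.2 ± 2), the J-domain gene Dnajb1 (25.3 ± 2.2) and the small heat shock gene Hspb1 (4.87 ± 1.3). The top 3 kept this order in brainstem and cortex. Neighbours in the order whose wild-type libraries overlapped were Hspe1 and Dnajb1, Hspb1 and Hspa1a, and Hspa1a and Hspa1b in hypothalamus, only Hspa1a and Hspa1b in brainstem, and Hspd1 and Hsph1, Hspb1 and Hspa1b, and Hspa1b and Hspa1a in cortex.

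Copies of these genes elsewhere in the genome limit the levels. Reads aligned to more than 1 place were not assigned to genes, and they made up 16% to 26.4% of a library. Of all 100-base windows along each member's transcript, the share also found in another gene's transcript was 62.8% for Hspa8, mostly in the pseudogene Gm15459, 48.6% for Hspa1a and 49.9% for Hspa1b, mostly in each other, and 47.5% for Hsp90aa1. It was 42.7% for Hspb1, 26.9% for Hspd1, 20.4% for Hspe1 and 0% for Hsph1, Dnajb1 and Hsp90ab1. Counted per 1000 unshared windows, Hspa8 came first in wild-type hypothalamus, at 1457.4 ± 33 CPM, and Hsp90ab1 after it at 716.6 ± 18 CPM (SD, n = 6), so the order of these 2 depends on how length is counted. Hspa1a also overlaps Gm20481 on the opposite strand over 2225 bases and Hspd1 overlaps Hspe1 over 112 bases, and the strand setting of the counting is not given in the sources used here. Levels of these genes are therefore uncertain. A ratio of the same gene between samples is free of this loss only if both samples lose the same share, which was not tested. Reads with several alignments were fewest in knockout cortex replicate 3, at 16%. They were most frequent in brainstem replicate 2 of the transgenic line's wild type, at 26.4%.

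**Figure D1:**
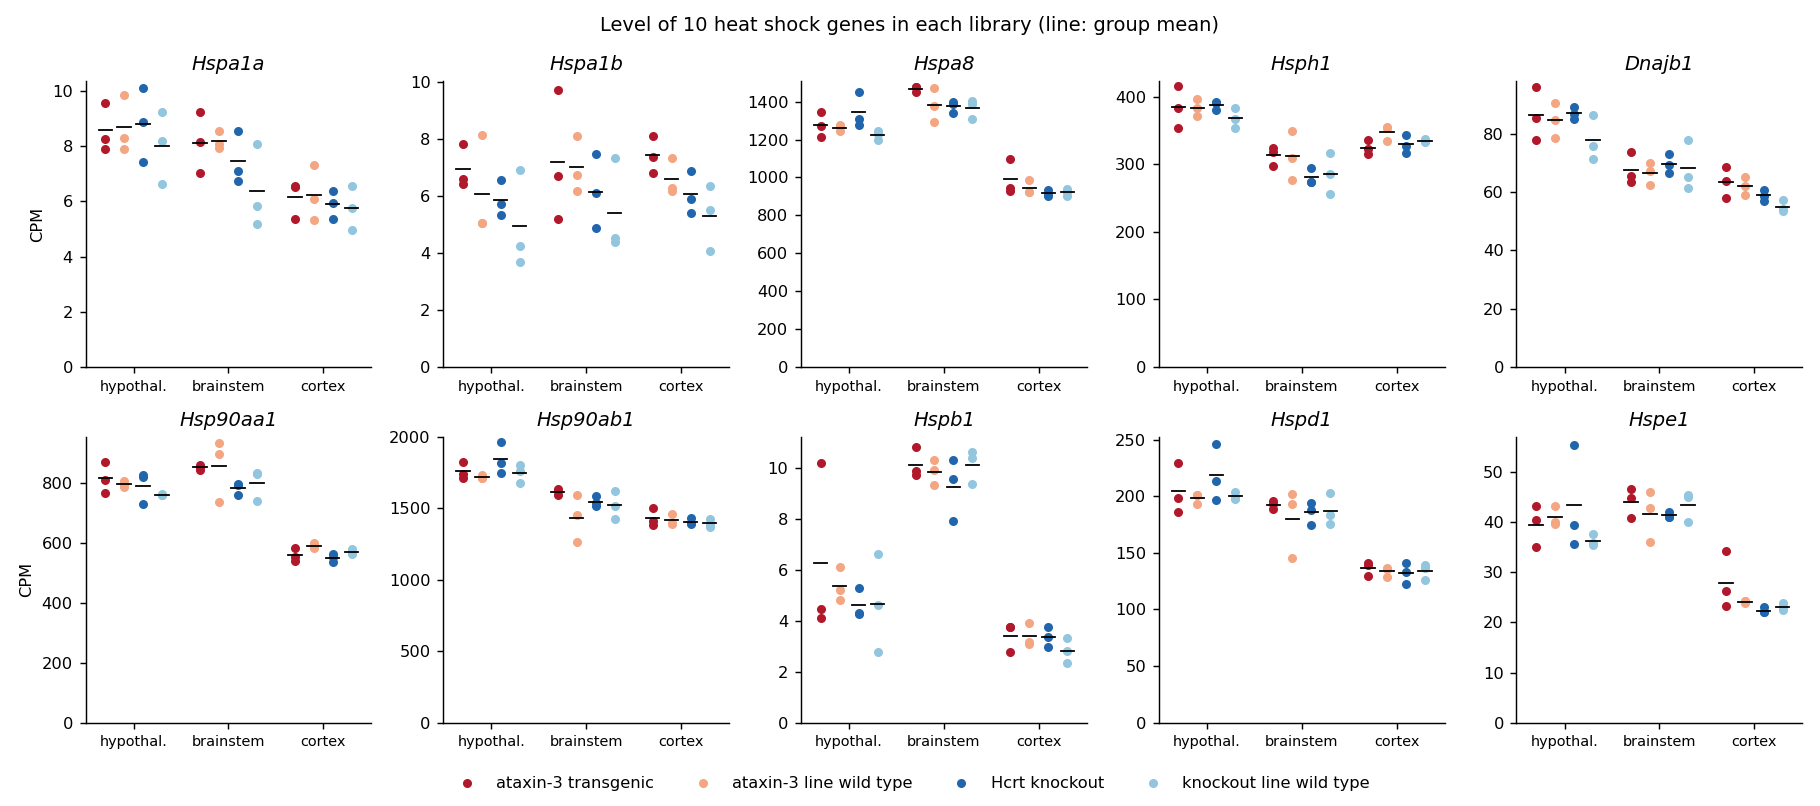
Level of each of the 10 heat shock genes in CPM (vertical axis, starting at 0) in every library, by tissue and genotype. Points are libraries and the short line is the mean of 3. Hspb1 stands highest in brainstem, Hspe1, Hspd1 and Hspa8 lowest in cortex, and the genotypes of a tissue overlap for most genes.

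Most heat shock genes were lower in cortex than in the deeper regions. Against wild-type cortex, 9 of the 10 members were higher in wild-type hypothalamus and 0 were lower, where 38.7% of all 17744 genes tested were higher and 37.2% lower (edgeR quasi-likelihood test, adjusted p under 0.05). Wild-type brainstem had 7 members higher and 1 lower than cortex, against 39.8% and 38.7% of all genes. Between hypothalamus and brainstem 3 were higher in hypothalamus and 2 lower, against 36.2% and 32% of all genes. The median log2 fold change of the members was 0.45, 0.36 and 0.01 in these 3 comparisons, beside 0.03, 0.02 and 0.03 for all genes. Most genes differed between the regions in 1 direction or the other, so a called difference by itself is common here.

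Of the inducible cytosolic Hsp70 genes, Hspa1a passed the test over cortex and Hspa1b did not, and the difference between them was not tested. Hspa1a averaged 8.35 ± 1.1 CPM in wild-type hypothalamus, 7.27 ± 1.4 CPM in brainstem and 6 ± 0.85 CPM in cortex (SD, n = 6). It was higher in hypothalamus than in cortex (log2 fold change 0.48, SE 0.11, adjusted p = 3e-04) and in brainstem than in cortex (0.27, SE 0.11, adjusted p = 0.03), with library ranges that overlapped in each case. The brainstem call rests on single libraries. Without replicate 3 of the knockout line's wild-type brainstem the value was 0.17 with adjusted p = 0.17, and without the filter on low counts it was 0.25 with adjusted p = 0.054. It was also lost without replicate 3 of the transgenic line's wild-type brainstem (adjusted p = 0.059) and without cortex wild-type replicate 2 of either line (0.089 each) or replicate 3 of the transgenic line (0.052). Hspa1b averaged 5.51 ± 1.7, 6.2 ± 1.5 and 5.94 ± 1.1 CPM in hypothalamus, brainstem and cortex, and no regional difference passed the test, with log2 fold changes of -0.11 (SE 0.17) for hypothalamus over cortex, 0.06 (SE 0.17) for brainstem over cortex and -0.17 (SE 0.17) for hypothalamus over brainstem. Without the 4 hypothalamus libraries that held pituitary or nasal transcripts, Hspa1b was lower in hypothalamus than in brainstem, at -0.46 with adjusted p = 0.043, and without all 5 libraries with other tissue it was at -0.42 with adjusted p = 0.11.

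Hspa8, which folds new proteins and uncoats clathrin vesicles at synapses, was higher in both deeper regions. Its wild-type libraries ran from 1199.1 to 1275.1 CPM (median 1243.5) in hypothalamus and 1292.5 to 1473.5 CPM (median 1382.7) in brainstem, against 903.4 to 986.8 CPM (median 923.9) in cortex. No library of either region overlapped with cortex, and none of hypothalamus with brainstem. The log2 fold change was 0.41 (SE 0.04, adjusted p = 3.4e-10) for hypothalamus and 0.56 (SE 0.04, adjusted p = 3.4e-13) for brainstem over cortex, and -0.14 (SE 0.04, adjusted p = 0.0034) for hypothalamus over brainstem. Without the 5 hypothalamus libraries with other tissue, which leaves 1 wild-type library of each line there, this last value was again -0.14 and did not pass (adjusted p = 0.061). Hsph1, the nucleotide exchange factor that releases the substrate, was lowest in brainstem, with 376 ± 15 CPM in hypothalamus, 299 ± 33 CPM in brainstem and 341.7 ± 10 CPM in cortex (SD, n = 6). It was the single member lower in brainstem than in cortex (-0.19, SE 0.05, adjusted p = 0.00085) and was higher in hypothalamus than in brainstem (0.33, SE 0.05, adjusted p = 8.6e-07). Its difference of 0.14 between hypothalamus and cortex (SE 0.05, adjusted p = 0.014) did not hold without the filter on low counts (0.11, adjusted p = 0.086) or without the hypothalamus libraries with pituitary or nasal transcripts (0.12, adjusted p = 0.1) or all 5 with other tissue (0.15, adjusted p = 0.059).

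Dnajb1, the J-domain protein that delivers substrates to Hsp70, averaged 81.2 ± 7.2 CPM in hypothalamus, 67.3 ± 6 CPM in brainstem and 58.5 ± 4.5 CPM in cortex (SD, n = 6). Its lowest hypothalamus library, 71.2 CPM, lay above the highest cortex library, 65.2 CPM, while brainstem overlapped with both. All 3 differences passed the test, at log2 0.47 (SE 0.06, adjusted p = 2.9e-08) for hypothalamus over cortex, 0.21 (SE 0.06, adjusted p = 0.0028) for brainstem over cortex and 0.27 (SE 0.06, adjusted p = 0.00024) for hypothalamus over brainstem.

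The 2 cytosolic Hsp90 genes act late on kinases and steroid receptors, and the difference between them was not tested. Hsp90aa1 averaged 778.6 ± 20 CPM in hypothalamus and 828.6 ± 80 CPM in brainstem, against 580.4 ± 14 CPM in cortex, and its ranges in both regions lay wholly above cortex. It was higher by 0.42 (SE 0.05, adjusted p = 1.4e-09) in hypothalamus and by 0.51 (SE 0.05, adjusted p = 1.9e-11) in brainstem over cortex. Hsp90ab1 averaged 1734.8 ± 44 CPM in hypothalamus, 1478 ± 129.1 CPM in brainstem and 1404.7 ± 32 CPM in cortex (SD, n = 6). It was higher in hypothalamus than in cortex (0.30, SE 0.04, adjusted p = 2.6e-07) and than in brainstem (0.23, SE 0.04, adjusted p = 2.6e-05), and its brainstem excess over cortex of 0.07 did not pass (SE 0.04, adjusted p = 0.13). Without the shallow brainstem wild-type library, where Hsp90ab1 stood at 1262.6 CPM, that excess was 0.12 with adjusted p = 0.0054, and the Hsp90aa1 difference of hypothalamus over brainstem went past the threshold too, at -0.14 with adjusted p = 0.004, beside -0.09 (SE 0.05, adjusted p = 0.086) with it.

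Hspb1, a small heat shock protein that holds unfolded proteins and binds the cytoskeleton, had the widest regional difference of the members. In wild-type hypothalamus its 6 libraries stood at 6.11, 5.2, 4.79, 4.63, 2.77 and 6.61 CPM. They stood at 9.91, 10.3, 9.32, 9.35, 10.4 and 10.6 CPM in wild-type brainstem, against 3.91, 3.18, 3.09, 2.32, 2.8 and 3.3 CPM in cortex. Every brainstem library was above every library of both other regions, while hypothalamus and cortex overlapped. The log2 fold change was 1.69 (SE 0.18, adjusted p = 1.3e-09) for brainstem over cortex, 0.69 (SE 0.18, adjusted p = 0.0011) for hypothalamus over cortex and -0.99 (SE 0.17, adjusted p = 1.1e-05) for hypothalamus over brainstem. Without the 5 hypothalamus libraries with other tissue, the excess of hypothalamus over cortex was 0.31 and did not pass (adjusted p = 0.054), and the value against brainstem was -1.39 (adjusted p = 2e-09).

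The mitochondrial chaperonin Hspd1 and its lid Hspe1 were lowest in cortex. Hspd1 averaged 199 ± 3.5 CPM in hypothalamus and 183.7 ± 22 CPM in brainstem, against 133.7 ± 5 CPM in cortex, a difference of 0.57 (SE 0.06, adjusted p = 2.1e-09) for hypothalamus and 0.46 (SE 0.06, adjusted p = 1.4e-07) for brainstem. Hspe1 averaged 38.7 ± 2.9 CPM in hypothalamus and 42.6 ± 3.9 CPM in brainstem, against 23.6 ± 0.76 CPM in cortex, a difference of 0.71 (SE 0.08, adjusted p = 1e-08) and 0.85 (SE 0.09, adjusted p = 2e-10). Both genes had every wild-type library of the deeper regions above every cortex library. Between hypothalamus and brainstem neither passed, at 0.12 (SE 0.06, adjusted p = 0.11) for Hspd1 and -0.14 (SE 0.08, adjusted p = 0.13) for Hspe1.

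**Figure D2:**
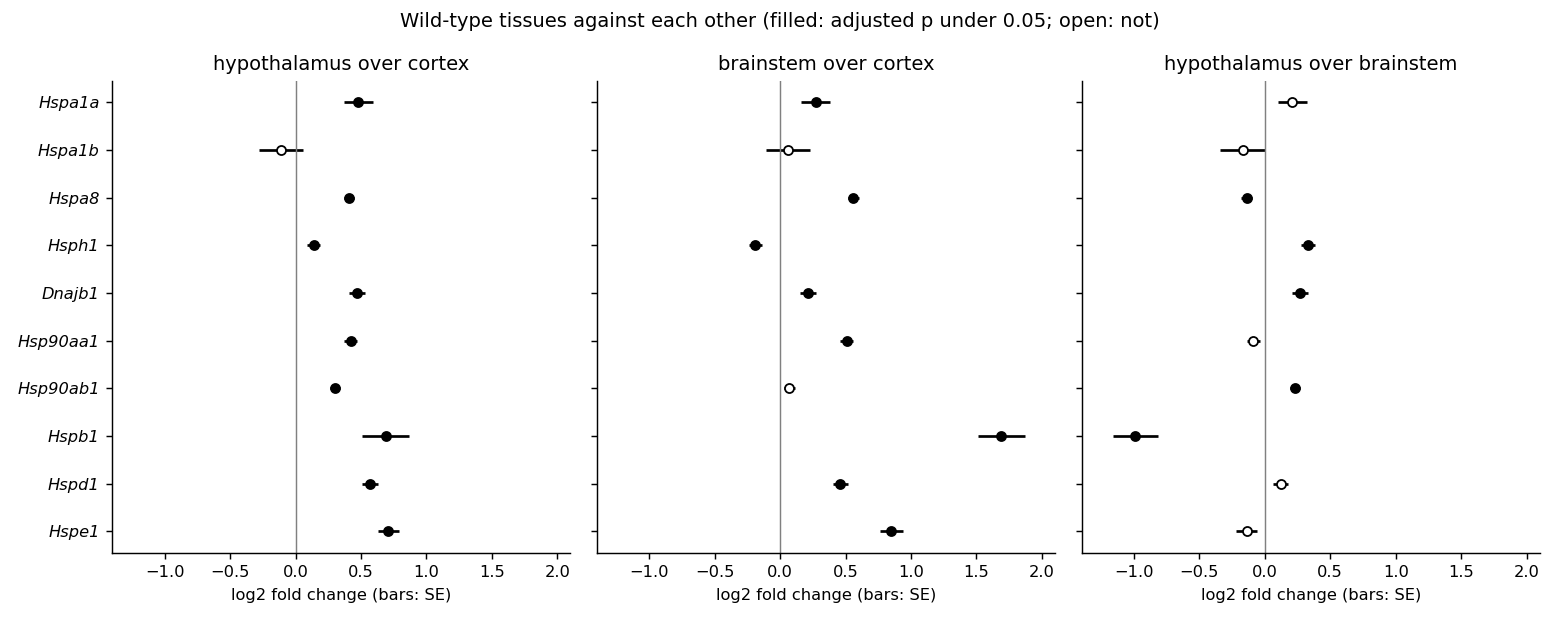
Log2 fold change of each member between wild-type regions (horizontal axis), with bars of 1 SE; filled points have an adjusted p under 0.05. Hspb1 is farthest from 0 in brainstem over cortex at 1.69, and Hspa1b lies near 0 in all 3 comparisons.

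The rest of the heat shock system is given from lists of known genes. Among all genes tested 38.7% were higher and 37.2% lower in hypothalamus over cortex. In brainstem over cortex 39.8% were higher and 38.7% lower, and the counts below stand beside these shares. All 8 subunits of TRiC, the cytosolic chaperonin that folds actin and tubulin, were higher in hypothalamus than in cortex and all 8 in brainstem than in cortex, led by Cct3 at 0.85 (SE 0.04) and 0.71 (SE 0.04). Of 10 Hsp90 cochaperones 6 were higher and 1 lower in hypothalamus over cortex, and 6 higher and 3 lower in brainstem over cortex. The scaffold Stip1, which hands substrates from Hsp70 to Hsp90, stood at 0.73 (SE 0.05) and 1.01 (SE 0.05), and the immunophilin Fkbp4 at 0.89 (SE 0.05) and 0.99 (SE 0.05). Of 10 other mitochondrial chaperones and proteases 6 were higher and 1 lower in hypothalamus, and 7 higher and 2 lower in brainstem. Hspa9, the mitochondrial Hsp70, stood at 0.32 (SE 0.04) and 0.41 (SE 0.04), and the exchange factor Grpel2 fell by 0.34 (SE 0.05) and by 0.49 (SE 0.05).

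Other genes split. Among 7 other small heat shock genes 4 were higher and 2 lower in brainstem over cortex. Hspb8 averaged 46.4 ± 3.9 CPM in brainstem, against 10.7 ± 0.77 CPM in cortex (log2 2.12, SE 0.07), Cryab 201.2 ± 12 against 63.3 ± 3.7 CPM (1.67, SE 0.08), and Hspb6 12 ± 1.2 against 4.13 ± 0.53 CPM (1.53, SE 0.09), while Hspb3 fell by 3.3 (SE 0.25). Of 15 J-domain and nucleotide exchange genes 7 were higher and 2 lower in hypothalamus over cortex, and 8 higher and 4 lower in brainstem over cortex. Bag3, which joins Hsp70 to Hspb8 in selective autophagy, averaged 15.9 ± 2.4 CPM in hypothalamus, 35.7 ± 2.7 CPM in brainstem and 6.9 ± 0.85 CPM in cortex, and Dnajb5 was lower in both, at -1.85 (SE 0.08) in hypothalamus and -2.56 (SE 0.08) in brainstem. Hsf1, the master regulator, was highest in cortex, at -0.33 (SE 0.06, adjusted p = 1.2e-05) for hypothalamus and -0.57 (SE 0.06, adjusted p = 5.3e-10) for brainstem over cortex. The list of heat shock factors also held Hsbp1, which is not itself such a factor. The list as a whole had 3 higher and 1 lower of 4 in hypothalamus, and 1 higher and 2 lower in brainstem. Of 7 other Hsp70 and Hsp110 genes 2 were higher and 1 lower in each region over cortex. Hspa13, a microsomal relative and not a cytosolic chaperone, was the highest in hypothalamus at 1.22 (SE 0.04), and Hspa4l in brainstem at 0.87 (SE 0.06).

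The chaperones of the endoplasmic reticulum, which answer to another stress pathway, had another regional pattern. Of 14 such genes 13 were higher and 0 lower in hypothalamus over cortex, and 11 higher and 0 lower in hypothalamus over brainstem, with a median log2 fold change of 0.67 and 0.46, against 0.45 and 0.01 for the cytosolic and mitochondrial members. Hspa5, the Hsp70 of that compartment, averaged 467.6 ± 39 CPM in hypothalamus, 264.3 ± 20 CPM in brainstem and 225.3 ± 12 CPM in cortex. In brainstem over cortex 7 were higher and 3 lower. Of all genes 38.7% were higher and 37.2% lower in hypothalamus over cortex, and 36.2% and 32% in hypothalamus over brainstem. The shares were 39.8% and 38.7% in brainstem over cortex. The difference between the lists was not tested.

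Cell type markers differed between the regions as well. Summed oligodendrocyte markers (6 genes) ran from 4201.1 to 5073.6 CPM in wild-type hypothalamus and 17636.4 to 18773 CPM in brainstem, against 3686.2 to 4667.7 CPM in cortex. Summed neuron markers (5 genes) ran from 3948.4 to 4480.2 CPM in hypothalamus and 5706.7 to 6351.6 CPM in brainstem, against 7359 to 7726.3 CPM in cortex. Summed meningeal markers (5 genes) ran from 53.3 to 125.1 CPM in hypothalamus and 78.7 to 103.1 CPM in brainstem, against 39 to 46.6 CPM in cortex, and choroid plexus markers (5 genes) from 1234 to 3029.6 CPM in brainstem, against 11.5 to 94.2 CPM in cortex. No marker of these lists was at 0 in all libraries of a region. In pieces of tissue, more cells of a type and more RNA per cell cannot be told apart, and the part of cell type makeup in the regional differences was not tested. The 10 immediate early genes, which report recent neuronal activity, were all lower in hypothalamus and in brainstem than in cortex, with medians of -2.4 and -3.22.

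In contrast to the regions, neither narcolepsy model moved a heat shock gene past the test. With edgeR's quasi-likelihood test 0 of 10 members were called in the transgenic or the knockout mice of any region, and DESeq2 called 0 as well. The share of all genes called was 0.00597% in transgenic hypothalamus, 0.0119% in knockout hypothalamus, 0.00606% in transgenic brainstem, 0.0728% in knockout brainstem, 0% in transgenic cortex and 0.0789% in knockout cortex, so calls were rare for all genes. At an unadjusted p under 0.05 stood 1 member in transgenic brainstem, Hsp90ab1, where 8.35% of all genes did, and 0 in the other 5 comparisons. The share of all genes at that level was 4.16% in transgenic and 3.89% in knockout hypothalamus, 3.24% in knockout brainstem, and 5.09% in transgenic and 3.3% in knockout cortex. Members' log2 fold changes ran from -0.04 to 0.25 in transgenic and -0.02 to 0.27 in knockout hypothalamus, from -0.01 to 0.17 in transgenic and -0.13 to 0.23 in knockout brainstem, and from -0.10 to 0.22 in transgenic and -0.05 to 0.25 in knockout cortex, with standard errors of 0.05 to 0.38. A miss of the threshold does not show that the groups are alike.

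The inducible Hsp70 genes, the usual reporters of misfolded protein, showed no call in the ataxin-3 transgenic line. Hspa1a stood at 7.88, 8.26 and 9.56 CPM in transgenic hypothalamus, against 9.85, 8.28 and 7.9 CPM in its wild type (log2 fold change -0.01, SE 0.15, adjusted p = 1). Hspa1b stood at 6.58, 6.41 and 7.83 CPM in transgenic hypothalamus, against 8.13, 5.04 and 5.06 CPM in its wild type (0.20, SE 0.24, adjusted p = 1). For both genes the groups overlapped. In knockout hypothalamus Hspa1a stood at 10.1, 8.87 and 7.44 CPM, against 6.62, 8.19 and 9.24 CPM in its wild type, and Hspa1b at 5.71, 6.56 and 5.33 CPM, against 3.69, 4.24 and 6.89 CPM. These groups overlapped too, at 0.14 (SE 0.15, adjusted p = 0.84) for Hspa1a and 0.25 (SE 0.24, adjusted p = 0.82) for Hspa1b. The pieces hold many cells besides hypocretin neurons, and a change in those neurons alone was not measured here. The transgene ablates these neurons, and Hcrt stood at 2.07 to 2.46 CPM in transgenic hypothalamus, against 100.8 to 196.1 CPM in its wild type. A response in neurons that were lost cannot be seen in these libraries.

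Across the hypothalamus 9 of 10 members lay above 0 in the knockout, with a median of 0.14 beside 0.01 for all 16738 genes tested, and 8 of 10 in the transgenic line, with a median of 0.04. Without replicate 1 of the knockout the median was 0.03, with 9 of 10 above 0, and without replicate 1 of its wild type it was 0.07. Leaving out any other single library of these groups put the median between 0.13 and 0.19. The top value came when wild-type replicate 3 was dropped, with 10 of 10 above 0. Dropping the 4 hypothalamus libraries high in pituitary or nasal markers gave 0.19 as well. When the fifth, high in cortex markers, was dropped too, the median was 0.14. These are counts of values that did not pass, read without a test. Hspa8 was the single member whose knockout hypothalamus libraries lay wholly above their wild types, at 1449.2, 1306.9 and 1274.7 CPM, against 1228, 1242.6 and 1199.1 CPM, where 3.84% of all genes did so. The libraries did not overlap, with replicate 1 of the knockout the highest, and the fold change was 0.14 (SE 0.07, adjusted p = 0.81), or 0.07 without that library. No member lay wholly below (3.28% of all genes), and none was apart in transgenic hypothalamus (4.62% of all genes above, 5.02% below). Hspe1 had its largest model difference in the same place, at 55.5, 35.6 and 39.5 CPM in knockout hypothalamus, against 35.4, 37.7 and 35.8 CPM in its wild type. The groups overlapped, replicate 1 of the knockout was the highest library, and the difference of 0.27 (SE 0.14, adjusted p = 0.81) was 0.04 without it. That library also had the largest share of reads aligned to more than 1 place in hypothalamus, and the part of this was not tested. Immediate early genes were below 0 in 10 of 10 cases in the same comparison, with a median of -0.55 and none called. Their summed level was 109.1, 132.6 and 99.9 CPM in knockout hypothalamus, against 269.2, 110 and 179.7 CPM in its wild type, where replicates 1 and 3 are those that held cortex markers. Immediate early genes were higher in cortex than in hypothalamus, and the part of cortex transcripts in this was not tested.

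Hspb1 in transgenic hypothalamus depended on a library with other tissue. It stood at 10.2, 4.09 and 4.45 CPM in transgenic hypothalamus, against 6.11, 5.2 and 4.79 CPM in its wild type. The high value belongs to replicate 1, which also held 892.6 CPM of summed meningeal markers, against 53.3 to 125.1 CPM in the other 11 hypothalamus libraries, and the nasal transcripts. The fold change was 0.25 (SE 0.37, adjusted p = 1) with all libraries and -0.33 without that one.

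In brainstem, Hsp90ab1 stood at 1636.7, 1595.5 and 1620.9 CPM in transgenic mice, against 1452, 1262.6 and 1590.4 CPM in their wild types. The groups did not overlap, with a gap of only a few CPM at the nearest pair, and 1 of 10 members was apart in this way, where 6.25% of all genes lay above and 6.16% below. The fold change was 0.17 (SE 0.07, unadjusted p = 0.027, adjusted p = 0.57). It was 0.08 without the shallow wild-type replicate 2 and 0.26 without wild-type replicate 3, where it passed the threshold with adjusted p = 0.043. The controls left there, replicates 1 and 2, had 32.3% and 42% of reads unassigned. The other brainstem libraries, replicate 3 among them, had 27.0% to 28.6%. In knockout brainstem no member was apart from its wild type (4.99% of all genes above, 4.69% below), and the largest value was Hspa1a at 0.23 (SE 0.15, adjusted p = 1), with 6.75, 8.53 and 7.11 CPM in knockout libraries, against 5.83, 5.18 and 8.06 CPM.

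In cortex, Hsp90aa1 stood at 552.7, 562.8 and 537.4 CPM in the knockout, against 566.3, 580.2 and 563.7 CPM in its wild type. It was the 1 member of 10 whose knockout cortex libraries lay wholly below, where 5.63% of all genes did so and 5.1% lay above, at a fold change of -0.05 (SE 0.05, adjusted p = 1). No member was apart in transgenic cortex (4.38% of all genes above, 4.64% below). Hspe1 had the largest transgenic value, at 34.3, 23.3 and 26.3 CPM in transgenic cortex, against 24.3, 23.9 and 24.3 CPM in its wild type. The groups overlapped with replicate 1 above all the others, and the difference of 0.22 (SE 0.10, adjusted p = 0.75) was 0.04 without it. That library also had the largest share of reads aligned to more than 1 place in cortex, and the part of this was not tested. Hsph1 stood at 322, 335.8 and 315 CPM in transgenic cortex, against 354.4, 334.8 and 355.5 CPM in its wild type, at -0.10 (SE 0.05, adjusted p = 0.75), and the groups overlapped by 1 wild-type library.

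**Figure D3:**
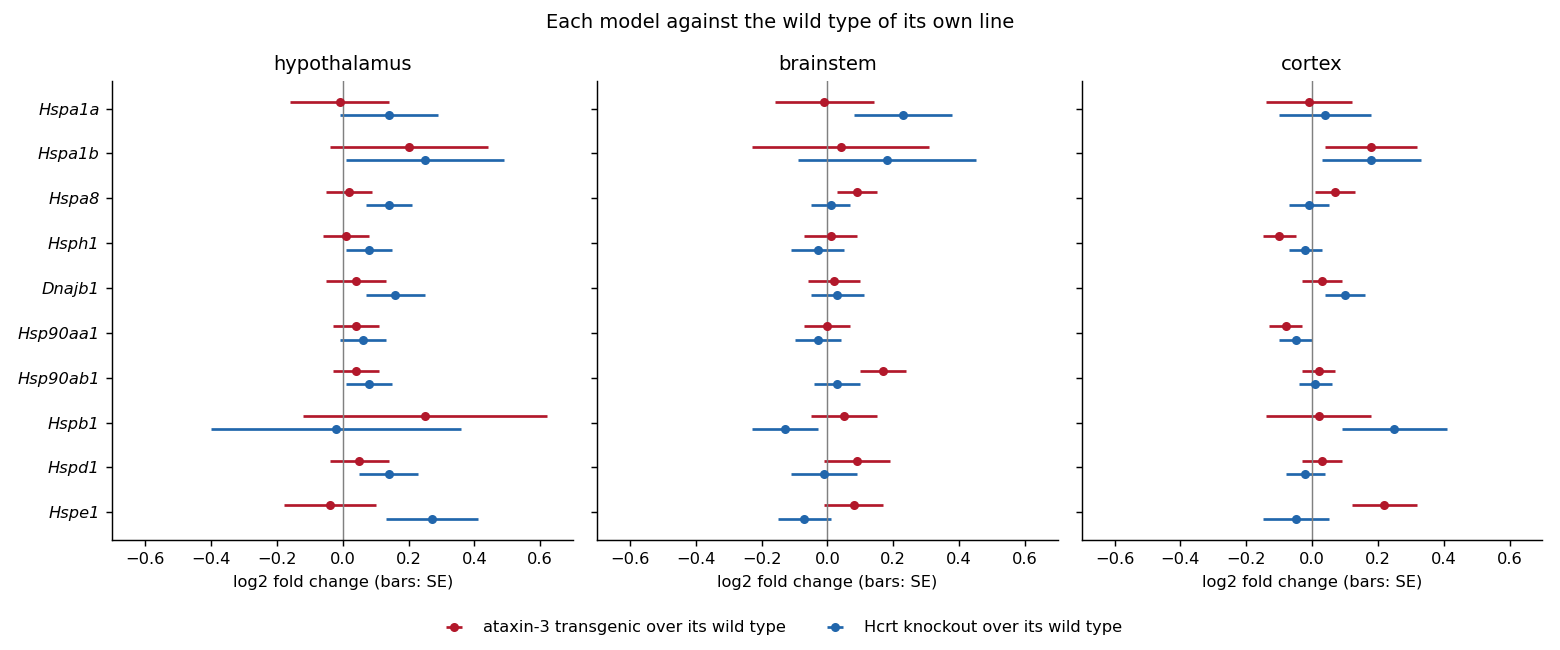
Log2 fold change of each member in ataxin-3 transgenic mice over their wild type (upper point of each pair) and in Hcrt knockout mice over theirs (lower point), by tissue, with bars of 1 SE. The values lie between -0.13 and 0.27, and none passed an adjusted p of 0.05.

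No member differed between the models past the test. The effect in transgenic mice minus that in knockout mice ran from -0.31 to 0.27 in hypothalamus, from -0.24 to 0.18 in brainstem and from -0.23 to 0.26 in cortex, with 0 of 10 members called by edgeR and by DESeq2 and 0 at an unadjusted p under 0.05. Over all genes 0%, 0% and 0.0243% were called, and 2.26%, 4.75% and 3.13% had such an unadjusted p. Hspe1 was farthest from 0 in hypothalamus at -0.31 (SE 0.20, adjusted p = 0.98) and in cortex at 0.26 (SE 0.15, adjusted p = 0.93), and both values include the single high libraries named above. The wild types of the lines were also set against each other, transgenic line over knockout line. No member was called by edgeR or DESeq2, and 0% of all genes were in each of the 3 regions. At an unadjusted level of 0.05, 0 members passed in hypothalamus, 1 in brainstem, Hspa1a (0.36, SE 0.15, edgeR adjusted p = 0.28), and 1 in cortex, Dnajb1 (0.17, SE 0.06, edgeR adjusted p = 1), where 2.29%, 14.9% and 3.26% of all genes did. The 3 libraries of the transgenic line lay wholly above those of the knockout line for 3 members in hypothalamus (Hspa8, Hsp90aa1 and Hspe1), 0 in brainstem and 2 in cortex (Dnajb1 and Hsp90aa1), where 5.28%, 9.19% and 5.35% of all genes did, and wholly below for 0 members, where 5.85%, 6.39% and 5.24% of all genes did.

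In the other chaperone lists 0 genes were called by edgeR in the 6 model comparisons, and 34 of 438 gene tests had an unadjusted p under 0.05. DESeq2 was not run for a count over these lists. Of those 34, 19 of 72 genes tested were in transgenic brainstem, where 8.35% of all genes had such a p. In the shallow replicate 2 of the wild type there, summed TRiC subunits stood at 1227.1 CPM and summed Hsp90 cochaperones at 955.8 CPM, against 1349.8 to 1422.1 and 1060.1 to 1146.2 CPM in the other 11 brainstem libraries. Without that library the count was 10 of 73, beside 8.72% of all genes. Between the brainstem wild types of the lines, which share control libraries with that comparison, 10 of 72 list genes had such a p, beside 14.9% of all genes. In transgenic brainstem stood the mitochondrial protease Lonp1 (0.23, SE 0.07, adjusted p = 0.54), the Hsp90 cochaperone Cdc37 (0.26, SE 0.08, adjusted p = 0.54) and the ubiquitin ligase of Hsp70 clients, Stub1 (0.17, SE 0.06, adjusted p = 0.54). These same genes stood at -0.23, -0.30 and -0.23 in the wild type of the transgenic line over that of the knockout line. In transgenic hypothalamus the small heat shock gene Hspb8 stood at 0.36 (SE 0.11, adjusted p = 1).

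From library to library, members moved together in groups. For each gene log2 CPM was centred on its group mean, so that tissue and genotype are taken out, and Pearson's r was taken over all 36 libraries as a description. Points share library depth and scaling, and the labels do not state whether points of different tissues come from the same animals. Hspa1a and Dnajb1 had r = 0.83 (Spearman's rho 0.79, and r = 0.78 without the 2 farthest libraries), with 0.80 in hypothalamus, 0.93 in brainstem and 0.72 in cortex. Among 11845 genes with a mean of at least 5 CPM, Dnajb1 had the highest r with Hspa1a and Hspa1a the second highest with Dnajb1. Hspa1b joined them, at r = 0.76 with Dnajb1 (rho 0.72, 0.68 without the 2 farthest) and 0.75 with Hspa1a (rho 0.75, 0.71 without the 2 farthest). Hspa1a shares 47.1% of its 100-base windows with Hspa1b, and the part of shared reads in that last value was not tested.

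A second group held Hsp90aa1, Hspd1 and Hsph1. Hsp90aa1 and Hspd1 had r = 0.88 (rho 0.78, 0.80 without the 2 farthest libraries), with 0.84 in hypothalamus, 0.94 in brainstem and 0.73 in cortex. Hspd1 had the highest r of all genes with Hsp90aa1, while Hsp90aa1 stood at place 18 for Hspd1, behind genes outside the members. Hsph1 had r = 0.79 with Hsp90aa1 (0.69 without the 2 farthest) and 0.74 with Hspd1 (0.63 without the 2 farthest). It stood at place 25 for Hsp90aa1 and 245 for Hspd1, which stood at places 3 and 11 for Hsph1. Another pair was Hspa8 and Hsp90ab1, at r = 0.80 (rho 0.81, 0.80 without the 2 farthest), with 0.80, 0.94 and 0.90 in the 3 regions. Hspa8 stood at place 8 for Hsp90ab1, and Hsp90ab1 at place 195 for Hspa8. Hspa8 and Hspe1 had r = 0.76 (rho 0.54, 0.61 without the 2 farthest), with Hspe1 at place 384 for Hspa8. Hsp90aa1 and Hsp90ab1, which encode closely related proteins, had r = 0.59 (rho 0.33) and -0.29 in cortex. Hspd1 and Hspe1, which share the promoter shown above, had r = 0.53 over all libraries (rho 0.37, 0.4 without the 2 farthest). Their r was 0.89 in hypothalamus, where knockout replicate 1 was the highest library for both, 0.46 in brainstem and 0.12 in cortex. The difference between regions was not tested. Over all libraries Hspb1 had r from -0.26 to 0.27 with the other 9, and the regions differed from this. In cortex its r ran from -0.44 with Hsp90aa1 to 0.75 with Hspa1a, with 0.65 for Dnajb1. In brainstem it ran from -0.37 with Hspe1 to 0.50 with Hspa1a. In hypothalamus, which includes transgenic replicate 1, it ran from -0.61 with Hsph1 to 0.34 with Hspa1b.

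**Figure D4:**
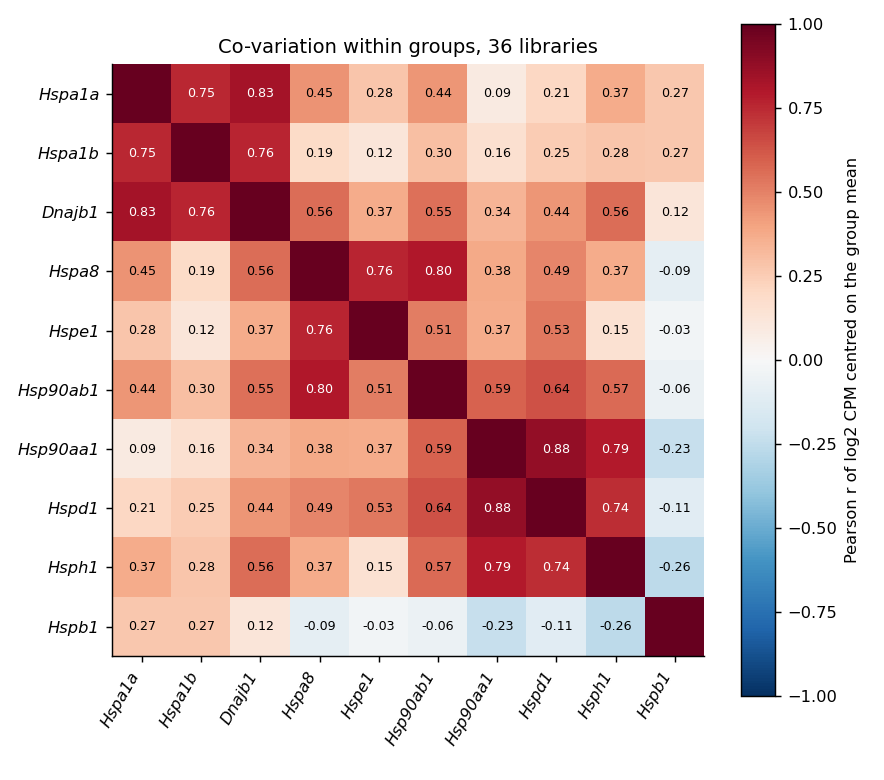
Pearson's r between members over 36 libraries, of log2 CPM centred on the group mean. Hspa1a, Hspa1b and Dnajb1 form a block of 0.75 to 0.83, and Hsp90aa1, Hspd1 and Hsph1 a block of 0.74 to 0.88. Hspb1 has values from -0.26 to 0.27.

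Genes outside the members gave each group its own neighbours. With Dnajb1 the highest were Hexim1, an inhibitor of transcription elongation (r = 0.83), and the endoplasmic reticulum chaperones Calr (0.73), Hspa5 (0.72) and Pdia6 (0.71), followed by Pbx2 (0.71). With Hspa1b they were Ccdc117 (0.71), Klhl21 (0.69), Hexim1 (0.65), Hspa5 (0.64) and Sdf2l1 (0.64). With Hspd1 they were Gtpbp4 (0.95), Ssb (0.93), Armcx1 (0.93), Ncl (0.92) and Fbxo22 (0.91), and with Hsp90aa1 Slu7 (0.88), Tlk2 (0.86), Rabep1 (0.86), Ncl (0.86) and Upf3b (0.85). With Hspa8 they were D8Ertd738e (0.90), Clta, a clathrin light chain (0.90), Pfdn6 (0.89), Rrp1 (0.89) and Prdx5 (0.89). With Hspb1 they were Anxa2 (0.84), Spp1 (0.84), Cyp2f2 (0.83), Igfbp4 (0.82) and Dcn (0.82), and Dcn is itself one of the meningeal markers. Within hypothalamus, which includes transgenic replicate 1, these 5 had r from 0.89 to 0.94, against 0.13 to 0.77 in brainstem and -0.06 to 0.70 in cortex. All values are over 36 libraries, which share depth and scaling.

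**Figure D5:**
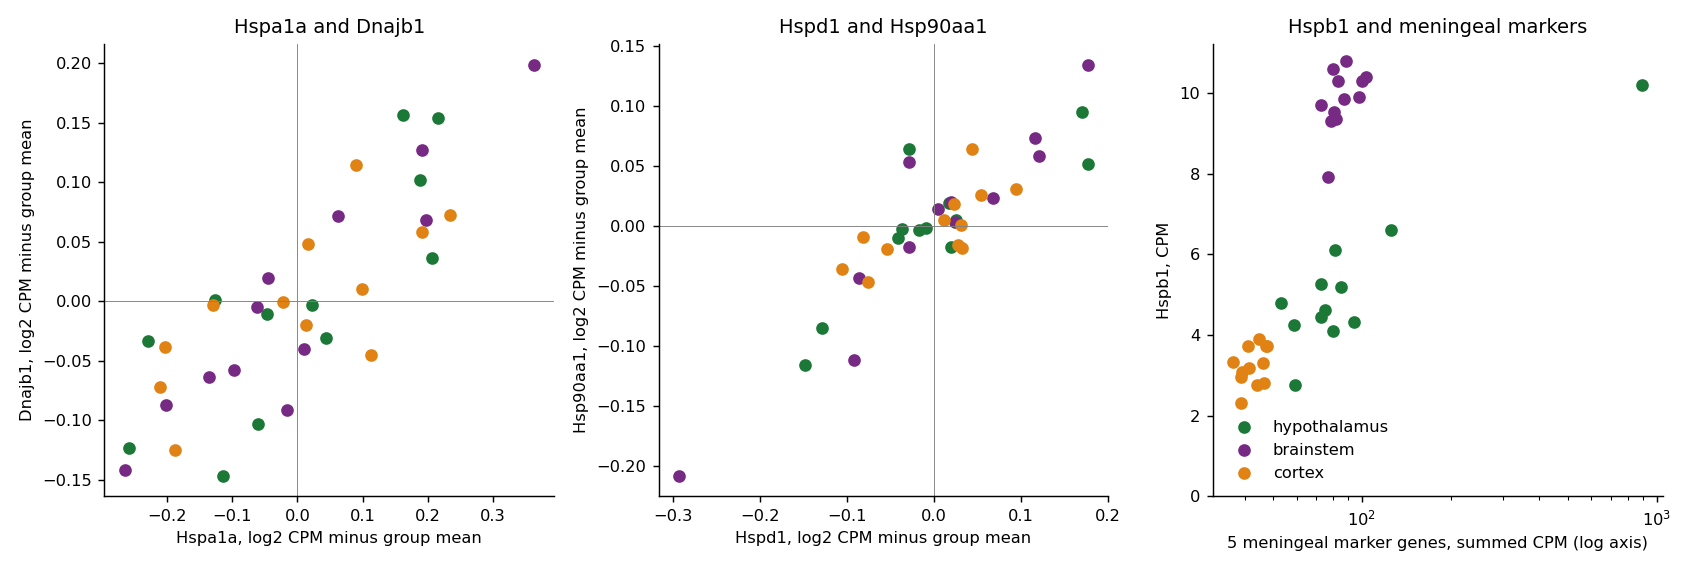
Dnajb1 against Hspa1a and Hsp90aa1 against Hspd1, as log2 CPM centred on the group mean, and Hspb1 in CPM against summed meningeal markers in CPM; each point is a library. The first 2 panels rise together with r of 0.83 and 0.88, and in the Hspb1 panel transgenic hypothalamus replicate 1 lies alone at 892.6 CPM of meningeal markers.

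The members differed in how far the libraries of a group lay apart. In hypothalamus the within-group SD of log2 CPM was 0.489 for Hspb1, against a median of 0.195 for genes of like level, and 0.321 for Hspa1b, against 0.183. In brainstem Hspa1b was at 0.356, against 0.138, wider than 98% of 1115 genes of like level. Hsp90aa1 in cortex was the tightest of the members, at 0.036, against 0.071. In hypothalamus Hspa8 (0.064 against 0.126), Hsp90ab1 (0.056 against 0.13), Hsp90aa1 (0.068 against 0.118) and Hsph1 (0.07 against 0.12) were narrower than genes of like level. In brainstem Hsp90ab1 (0.097), Hsp90aa1 (0.106) and Hsph1 (0.12) stood above the median of 0.073, wider than 68.3%, 73.9% and 89.6% of such genes. Their SD was 11%, 12% and 12% of the mean in the transgenic line's wild type, which holds the shallow library. It was 1.1% to 10% in the other brainstem groups.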

How the data were processed

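RNA was extracted with the RNeasy Lipid Tissue kit and sequenced from Illumina TruSeq Stranded mRNA libraries made from 500 ng of total RNA, per the labels' protocols. The authors deposited raw counts per Ensembl gene, 1 table a library, not normalized. Per the submitters' processing notes, the tools were cutadapt 1.2.1, TopHat2 2.0.9 and HTSeq 0.5.4p3, with the build GRCm38. Counting options and annotation release: not given in the sources used here. Unassigned reads, in 5 special lines, made up 24.7% to 42% of a library and entered neither library sizes nor tests.

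Groups came from the sample labels. Tests used edgeR 4.0.16 under R 4.3.3, by its quasi-likelihood method (robust, TMM factors, default expression filter by group), with Benjamini-Hochberg adjustment over all genes tested and a threshold of 0.05. Every adjusted p is from this test unless another tool is named. The 12 libraries of a tissue entered 1 fit (16738 genes in hypothalamus, 16493 in brainstem, 16479 in cortex), and regions were compared in a fit of all 36 libraries as the mean of both wild-type groups (17744 genes). The SE is the size of the log2 fold change divided by the root of the F statistic. The script was tested on simulated counts. The alternatives were DESeq2 1.42.0, other scaling and filters, a replicate block, leaving out libraries in turn and leaving out the 4 hypothalamus libraries with pituitary or nasal transcripts. Leaving out these and the fifth with cortex transcripts, and the list counts without the shallow brainstem library, were added after seeing the data. Where a group then has 1 library, it is assumed to vary like the others.

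The members, lists and tests were chosen with earlier results of these data known. All members are named. Of each other list, up to 4 genes past the threshold with the smallest p are named per comparison, or up to 2 where none passed, and for likeness the 5 genes with the highest r outside the members. The lowest count of a member in a library was 68 (Hspb1), and Hspa1a and Hspa1b had at least 135 and 114. Without molecular identifiers reads cannot be taken as independent molecules. Hspa14, of the list of other Hsp70 and Hsp110 genes, had no line in the tables used here.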

Additional observations from a re-analysis of the deposited data

How the results depend on the processing

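Counts of members called in the 12 comparisons within a tissue were 0 under all alternatives, DESeq2 included, with 1 exception. In transgenic brainstem the count was 0 to 1 when single libraries were left out, and 1 (Hsp90ab1) without replicate 3 of its wild type. Between regions, DESeq2 called 9, 8 and 6 members for hypothalamus over cortex, brainstem over cortex and hypothalamus over brainstem, where edgeR called 9, 8 and 5. A replicate block changed 1 call, Hspa1a in hypothalamus over brainstem (0.21, adjusted p = 0.04), and gave 9, 8 and 6. Whether the numbers pair the samples is not stated in the labels. Within a tissue 25 of 54 same-numbered pairs had a correlation of deviations over 0.1, beside 35 of 108 pairs with other numbers. Across tissues these counts were 7 of 36 and 21 of 72. Such counts cannot show whether a number marks the same animal. No called value reversed. Of the member values under the alternatives, 1669 within a tissue and 557 between regions stayed on the same side of the threshold, 1 and 12 went past it, and 11 between regions lost it, of Hsph1, Hspa1a, Hspb1 or Hspa8. Another sign was seen in 133 of these 2250 values, none past the threshold. Without the 5 hypothalamus libraries with other tissue, 7 members were called over cortex and 4 over brainstem. Using all 4 genotypes, Hsp90ab1 was called in brainstem over cortex (0.12, adjusted p = 0.0011), and Hspd1 (0.14, adjusted p = 0.0062) and Hspa1a (0.18, adjusted p = 0.035) in hypothalamus over brainstem. The cause of these changes was not tested. With 3 libraries a group, standard errors of up to 0.38 on the log2 scale limit what Hspb1 and Hspa1b can show.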
